A study of Mus musculus with 2 samples.

Results

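Nuclear genes for mitochondrial proteins were followed through a map of RNA bound to YTHDF2 in mouse muscle cells. The genes were chosen by symbol: the 9 families beginning Mrpl, Mrps, Nduf, Cox, Coa, Timm, Tomm, Atp5 and Uqcr, together with Trmt10c and Mtfmt. In GENCODE M21 these rules gave 210 protein-coding genes, of which 28 stood in the authors' table of genes with a peak, with 30 of its 1541 peaks. That table names 1285 genes. Another 20 annotated symbols with these beginnings are not protein-coding and were left out. A prefix is not a function: the 6 Coa genes include Coasy, a coenzyme A synthase, and Timmdc1 is known as an assembly factor of complex I.

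The cells were C2C12, a mouse myoblast line that fuses into myotubes in low serum, wild-type, untreated and harvested as multinucleated myotubes. RNA immunoprecipitation (RIP) with an antibody to YTHDF2 gave 1 library, and 1 input library from these cells was the reference. Both carry batch label 1, and an IgG control named in the design text was not analysed here. With 1 library per group no value has a replicate, so no difference below carries a test, and p-values are printed only from the authors' own tables. Setting RIP against input asks which transcripts YTHDF2 bound, and along which stretches.

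Mitochondria keep a small genome of their own, and nearly all mitochondrial proteins are made in the cytosol from nuclear mRNA and imported. The translocase of the outer membrane (TOM, Tomm genes) and that of the inner membrane (TIM, Timm genes) carry them in. The Nduf, Uqcr, Cox and Atp5 genes encode subunits and assembly factors of respiratory complexes I, III and IV and of ATP synthase, Coa genes encode assembly factors of complex IV, and Mrpl and Mrps genes encode the large and small subunits of the mitochondrial ribosome. Each of these complexes except the translocases joins nuclear-encoded parts to products of the mitochondrial genome. Skeletal muscle fibres depend heavily on this machinery. YTHDF2 is a cytoplasmic protein that binds N6-methyladenosine (m6A) in mRNA and is known for bringing deadenylases to its targets. The m6A mark is laid down mostly in a short sequence called DRACH: a base other than C, a purine, then AC, then a base other than G. A favoured form, written GGACH here, is GGAC followed by a base other than G.

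Sequences of 7 peaks among those of highest fold are shown to let the peaks be read beside their values. The Mtfmt peak, which holds no match, is shown further on by its coding bases, and that of Ndufaf6 is not shown, since the window around its GGACH match runs past the exon. Each line below gives 30 bases of the gene's own strand from the GRCm38 genome, taken around the DRACH match nearest the summit, or around the GGACH match where the peak held one. The match is in capitals. A match is a description of the letters and not a mapped m6A site.
Trmt10c, 3′ UTR just after the stop codon: ctgaaagtatggTGACAagaatgtagttat
Cox7b, 3′ UTR: aggaattgtttaAAACCaacttataagtga
Coa6, 5′ UTR up to the last base before the start codon: tggcttcccgcgTGACCactgcaggcagga
Ndufc1, 3′ UTR: gtcagtgctgatGGACTcttacttgttttg
Mrpl18, 3′ UTR: catttggaaggaGAACCagactgaaagctt
Timm8b, end of the coding sequence: ggatcgcttcatTGACActactcttgccat
Tomm5, 3′ UTR: ccttaggcccatGAACTccacccctgtgag
The windows lie at chr16:56033960-56033989, chrX:106021848-106021877, chr8:126422657-126422686, chr3:51405429-51405458, chr17:12911528-12911557, chr9:50605028-50605057 and chr4:45105370-45105399, in the order of the lines. Cox7b, Coa6 and Timm8b are on the plus strand and the others on the minus strand. The match lay 1 base from the summit in Tomm5, 5 in Trmt10c, 11 in Cox7b, 17 in Timm8b, 20 in Coa6, 26 in Mrpl18 and 51 in Ndufc1. Of these 7 peaks, that of Ndufc1 held the GGACH form, as did the Ndufaf6 peak not shown.

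YTHDF2 peaks were listed for 28 of the 210 genes, 13.3% (Wilson 95% interval 9.39 to 18.6). Of all 21911 protein-coding genes of the annotation, 5.82% had a row in the same table. Trmt10c and Mtfmt were named in the rule and both have a row; without them the prefix families had 26 of 208, 12.5% (8.67 to 17.7). The listed genes were spread over 8 of the 9 families, with Mrpl contributing 10 genes and Mrps none. The comparison counts silent genes in the background: expression is not known here, while most of these families serve every cell with mitochondria. The part of expression in the difference was not tested. Other complexes made in nearly every cell lay on both sides. Proteasome genes (symbols beginning Psm) had a row in 11 of 50 cases, 22% (12.8 to 35.2), and cytosolic ribosomal protein genes in 7 of 91, 7.69% (3.78 to 15). Wilson intervals here cover counting of genes only. In bulk cells, less bound RNA per cell and fewer cells with bound RNA cannot be told apart.

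The count depends on how a gene is called. With a fold enrichment of 4 or more, 13 of the 210 genes remained, 6.19%, against 2.16% of all protein-coding genes. With a q-value of 1e-05 or less, 23 remained, 11% against 4.41%. Taking every peak over an exon by at least 1 bp gave 31 genes, 14.8% against 7.02%. Taking every peak over a gene body, introns included, gave 41 genes, 19.5% against 15.0%. Under that last call the members stood closer to the background. The Atp5 family gains a gene if an older symbol is followed: the authors list Atp5mpl, a small protein that copurifies with ATP synthase, as 2010107E04Rik. Its peak spanned the stop codon at chr12:111961376-111961569, with 25 RIP fragments over a background of 3 and a fold enrichment of 5.88 (3.89 to 8.55). It is not counted among the 28, and would make them 29. The shares of all protein-coding genes do follow older symbols. On that rule 14 members remained at a fold of 4 or more and 24 at a q-value of 1e-05 or less. The exon and gene-body counts of 31 and 41 already include Atp5mpl.

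**Figure D1:**
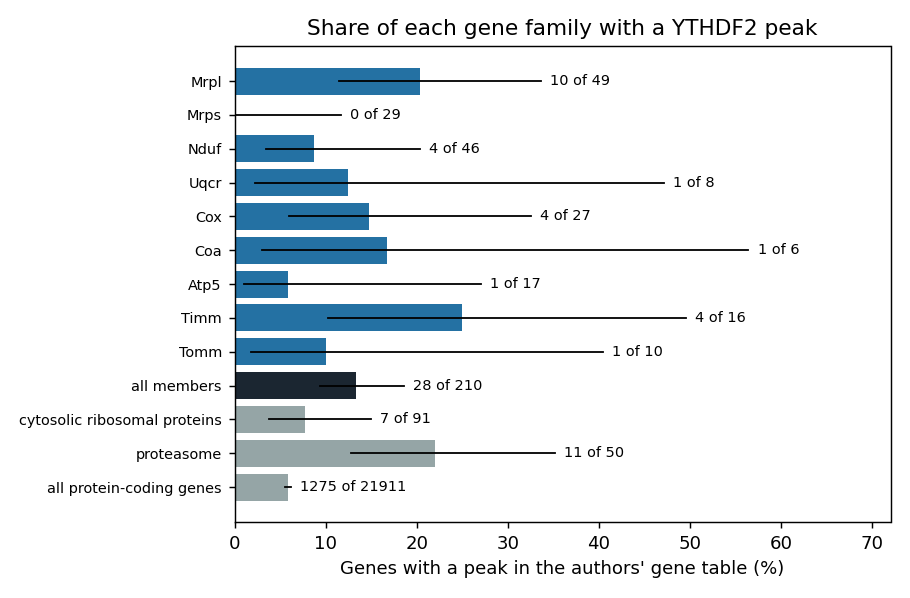
Share of the protein-coding genes of each family (vertical axis) with a peak in the authors' gene table (horizontal axis, percent), with Wilson 95% intervals as lines and the counts printed beside them. Timm (4 of 16), Mrpl (10 of 49) and the proteasome (11 of 50) had the highest shares with 4 or more genes, and Mrps had none of 29.

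The families differed in how many genes were listed. Mrpl had 10 of 49, 20.4% (11.5 to 33.6), an interval that lies above the background of 5.82%. At a fold of 4 or more Mrpl kept 2 of 49, 4.08% (1.13 to 13.7), an interval that holds the background of 2.16%, while Timm kept 3 of 16 and Nduf 3 of 46. Timm had 4 of 16, 25% (10.2 to 49.5), also above it. Cox had 4 of 27, 14.8% (5.92 to 32.5), with the lower bound just above the background. Nduf had 4 of 46, 8.7% (3.43 to 20.3), a share near the background. Coa had 1 of 6, Tomm 1 of 10, Uqcr 1 of 8 and Atp5 1 of 17, and at these sizes no family share could be told from the background. Mrps had 0 of 29, 0% (0 to 11.7), an interval that also holds the background of 5.82%. No difference between families was tested. Without Mrpl, 18 of 161 members had a row, 11.2% (7.19 to 17).

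The values behind each peak are the RIP fragments at its summit, the input background there, and the fold enrichment. The authors' pileup signal rose in steps of 0.9, and each step was read as 1 fragment. The input background was computed from pileup and fold enrichment and is in the caller's scaled units. It is not a count of input fragments at the summit. Fold enrichment is linear and is the authors' own value for each peak. It is pileup plus 1 over background plus 1, so it is below the plain ratio of fragments to background, most of all where the background is low. The 95% interval after each fold is the exact Poisson interval of the RIP fragments, with the background held fixed. It covers counting error of the RIP fragments only, and PCR copies are not independent molecules. Where intervals below do not overlap, the error of the backgrounds is still left out. Over the 28 genes the median of the highest fold was 3.53 (range 1.59 to 11.9), beside 3.42 over all protein-coding genes of the table. The median number of fragments was 50.5 (17 to 159), a pileup of 45.5, beside 59 fragments over those genes. At the level of these medians the members were near the rest of the table, and the difference lies in how the families spread around them.

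**Figure D2:**
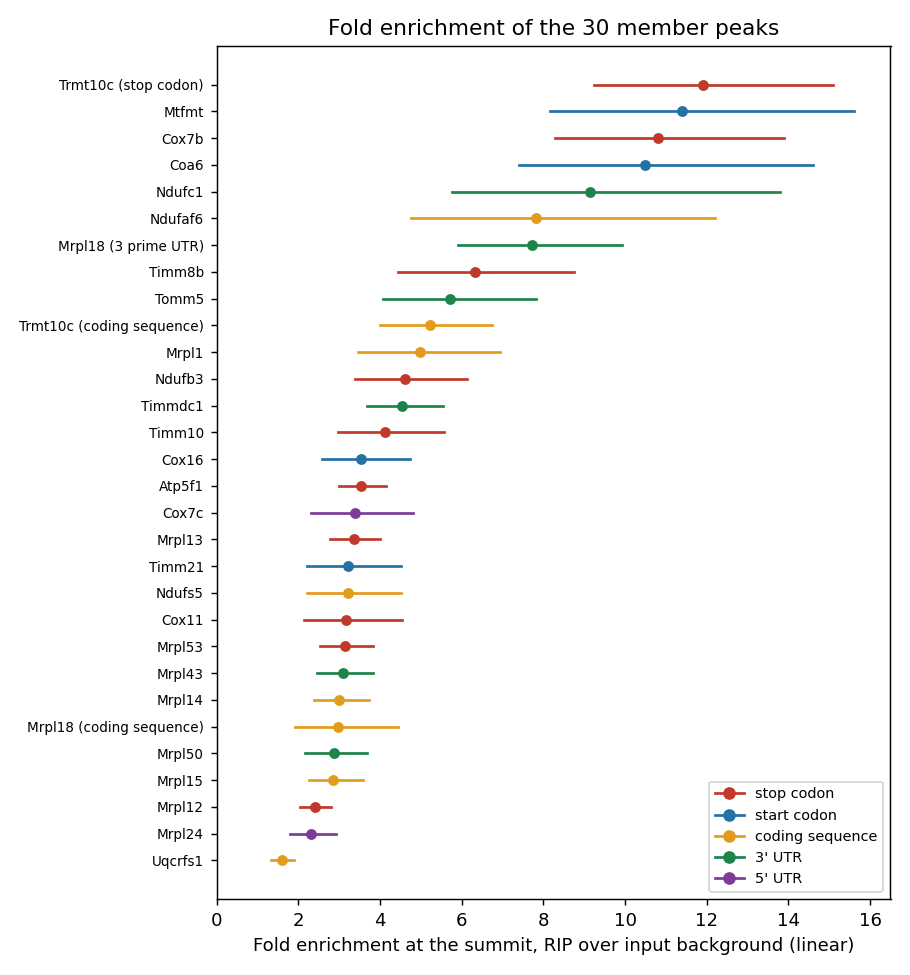
Fold enrichment of the 30 member peaks (horizontal axis, linear, RIP over input background) with exact 95% Poisson counting intervals, coloured by the element each peak was assigned to. The upper 10 peaks stand at 5.23 or more and hold 1 Mrpl peak, and 10 of the 11 Mrpl peaks stand below 5.

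The 2 genes named outside the prefixes act on mitochondrial tRNA, and they had the highest folds of the set. Trmt10c encodes the methyltransferase subunit of mitochondrial RNase P, the enzyme that frees the 5′ ends of mitochondrial tRNAs. It had 65 fragments over a background of 4 at chr16:56033832-56034097, a fold of 11.9 (9.23 to 15.1), the third highest among the genes of the table. This peak spanned the stop codon, with its summit 46 nt after the end of the coding sequence. A separate Trmt10c peak lay upstream in the coding sequence at chr16:56034446-56034673, with 57 fragments over a background of 9 and a fold of 5.23 (3.99 to 6.75). The fragments of the 2 peaks were similar in number and the backgrounds differed. The intervals of their folds do not overlap, but they hold the background fixed and so leave out the error of the value that differed. Mtfmt encodes the formyltransferase that turns methionyl-tRNA into the initiator of mitochondrial translation. It had 37 fragments over a background of 2 at chr9:65435815-65436034, a fold of 11.4 (8.15 to 15.6), over the start of the coding sequence in exon 1 of 9. Both genes were named in the rule, so their high folds say nothing about the families.

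The 2 coding stretches under these peaks differ in the motif. The Trmt10c stretch is 228 nt, bases 598 to 825 of the coding sequence, and holds 6 DRACH matches, in capitals.
Trmt10c coding sequence: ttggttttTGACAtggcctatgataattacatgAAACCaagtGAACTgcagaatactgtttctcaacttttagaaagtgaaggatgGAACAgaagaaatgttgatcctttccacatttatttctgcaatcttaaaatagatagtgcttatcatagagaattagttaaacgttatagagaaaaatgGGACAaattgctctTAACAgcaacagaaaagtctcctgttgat
The Mtfmt stretch is 193 nt, bases 2 to 194 of the coding sequence, at chr9:65435815-65436007. It holds 0 DRACH matches, as does the whole peak.
Mtfmt coding sequence: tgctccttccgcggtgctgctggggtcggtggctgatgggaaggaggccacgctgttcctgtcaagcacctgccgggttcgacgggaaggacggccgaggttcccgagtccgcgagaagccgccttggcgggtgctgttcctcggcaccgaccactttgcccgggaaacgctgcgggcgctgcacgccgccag
Peaks without any DRACH match were rare: 28 of the 30 member peaks held at least 1, and the other without was that of Ndufb3.

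The large mitochondrial ribosomal subunit had the most genes and, apart from Mrpl18 and Mrpl1, low folds on many fragments. The 10 genes had a median highest fold of 3.04 and a median of 77 fragments over a median background of 23. The other 18 members had a median highest fold of 4.57, 37 fragments and a background of 7. The Mrpl peaks were therefore taller in fragments and lower in fold, with the input background higher by more than the fragments. By the authors' pileup signal, the median highest value was 69.3 in Mrpl, 33.3 in Timm, 31.9 in Cox and 22.9 in Nduf. Mrpl18, a protein of the large subunit's central protuberance, had the highest fold of the family. Its peak in the 3′ UTR at chr17:12911427-12911637 had 59 fragments over a background of 6, a fold of 7.73 (5.92 to 9.93). Its other peak, in coding exon 3 of 4 at chr17:12913805-12914018, had 22 fragments over the same background and a fold of 2.97 (1.92 to 4.43). These 2 intervals do not overlap, but they leave out the counting error of the backgrounds, so the difference in fold was not tested. Mrpl1, in coding exon 4 of 10 at chr5:96223806-96224009, had 32 fragments over 5 and a fold of 4.97 (3.45 to 6.94).

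The other 8 Mrpl genes lay between 2.30 and 3.35, and the counting intervals of all 8 overlap; no test of their order was run. Mrpl13 had 118 fragments over 31 and a fold of 3.35 (2.78 to 4.01), over the stop codon at chr15:55534144-55534334. Mrpl53 had 93 fragments over 26 and a fold of 3.14 (2.54 to 3.83), also over the stop codon, at chr6:83109579-83109843. Mrpl43 had 81 over 23 and a fold of 3.08 (2.45 to 3.82) in the 3′ UTR, at chr19:45005017-45005242. These 3 peaks all lay in the last exon. Mrpl14 had 79 over 23 and a fold of 3.0 (2.39 to 3.73) in coding sequence at chr17:45698131-45698342, with 3 GGACH matches, the nearest 1 base from the summit. Mrpl50 had 56 over 17 and a fold of 2.86 (2.17 to 3.69) in the 3′ UTR at chr4:49513005-49513294, with the summit 1024 nt past the coding sequence, the farthest downstream of all members. Mrpl15 had 75 over 23 and a fold of 2.85 (2.25 to 3.57) in its last coding exon at chr1:4776497-4776689. Mrpl12 and Mrpl24 had the lowest folds of the family. Mrpl12, which is also known to bind the mitochondrial RNA polymerase, had the most fragments of any member, 159 over 59, and a fold of 2.40 (2.05 to 2.80), over the stop codon at chr11:120488338-120488649. Mrpl24 had 68 over 26 and a fold of 2.30 (1.80 to 2.91) in the 5′ UTR at chr3:87919658-87919884.

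In the 29 Mrps genes no exon held a listed peak. The prefix need not cover the whole small subunit. The authors' peak genes for the Gene Ontology term mitochondrial ribosome included Dap3, which has another symbol. The lone Mrps peak of any kind lay in an intron of Mrps30, at chr13:118381112-118381301, with 22 fragments over 2.25 and a fold of 6.40 (4.12 to 9.53). The families' transcripts were of like length, with a median of 1316 nt for Mrpl and 1197 nt for Mrps.

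Complex I, which oxidises NADH, had 4 of its 46 Nduf genes listed, with few fragments over low backgrounds. The median was 25.5 fragments over 4.54, and the median highest fold 6.22. Ndufc1, an accessory subunit, had 20 fragments over the lowest background in the list, 1.08, and a fold of 9.13 (5.76 to 13.8) in its 3′ UTR at chr3:51405402-51405627. Ndufaf6, an assembly factor, had 17 fragments over the same background and a fold of 7.83 (4.76 to 12.2) in coding exon 1 of 9 at chr4:11075946-11076151. Of all 9271 peaks 466 stood at this lowest background, and 2 of the member peaks did. The folds of Ndufc1 and Ndufaf6 thus rest on a background value shared by many peaks and on few fragments. Ndufb3, another accessory subunit, had 45 fragments over 8 and a fold of 4.61 (3.39 to 6.13) over its stop codon at chr1:58595702-58595887. Ndufs5, also an accessory subunit, had 31 over 8 and a fold of 3.21 (2.22 to 4.51) in coding exon 1 of 2 at chr4:123715870-123716055. The intervals of the first 2 overlap widely, while those of Ndufc1 and Ndufs5 do not overlap. Timmdc1, placed among the Timm genes by its symbol, had more fragments than any of these: 93 over 17.7, a fold of 4.54 (3.67 to 5.55), in the 3′ UTR at chr16:38498704-38498921.

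Complex III had 1 listed gene of 8, and it had the lowest fold of all members. Uqcrfs1 encodes the Rieske iron-sulfur subunit. Its peak, in the coding sequence at chr13:30540981-30541178, had 135 fragments over a background of 76, the highest member background, and a fold of 1.59 (1.34 to 1.88). It ranked 1260 of the 1285 genes by fold. Its coding stretch, bases 378 to 575, is shown as the low end beside the Trmt10c stretch. It holds 4 DRACH matches and none of the GGACH form.
Uqcrfs1 coding sequence: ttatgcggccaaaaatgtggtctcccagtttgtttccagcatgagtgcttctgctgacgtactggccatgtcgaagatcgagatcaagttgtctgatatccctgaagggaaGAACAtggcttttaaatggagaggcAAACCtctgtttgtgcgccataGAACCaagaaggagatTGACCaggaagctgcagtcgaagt
The number of matches did not follow fold over these 3 genes: 8 matches stood under the strongest peak, 4 under the weakest and 0 under the Mtfmt peak.

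Cytochrome c oxidase, complex IV, had a subunit and an assembly factor among the highest folds, and its other listed genes near the member median. Cox7b, a small subunit of the complex, had 59 fragments over 4 and a fold of 10.8 (8.28 to 13.9) over its stop codon at chrX:106021737-106021976. Coa6, a factor in copper delivery to the complex, had 34 over 2 and a fold of 10.5 (7.40 to 14.6) over its start codon in exon 1 of 2, at chr8:126422594-126422810. These 2 lay far above the rest of the complex, and their intervals overlap each other and those of Trmt10c and Mtfmt. Cox16, an assembly factor, had 42 over 10 and a fold of 3.53 (2.57 to 4.74) over its start codon at chr12:81484867-81485063. Cox7c, a further small subunit, had 29 over 7 and a fold of 3.39 (2.31 to 4.81) at chr13:86046228-86046551. The authors mark that peak as 5′ UTR, and in GENCODE M21 it lies in an alternative first exon and in an intron of the transcript with the longest coding sequence. Cox11, needed for copper insertion, had 27 over 7 and a fold of 3.16 (2.13 to 4.54) at chr11:90644520-90644895. That peak reached the stop codon, with its summit 283 nt past it, and the authors list it for Tom1l1 as well, an exon of which overlaps on the opposite strand. None of these last 3 intervals reached the lower bound of Cox7b or Coa6.

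ATP synthase had 1 listed gene of 17 by symbol. Atp5f1, subunit b of the peripheral stalk, had 152 fragments over 38 and a fold of 3.53 (3.0 to 4.14) over its stop codon at chr3:105942804-105942993. Only Mrpl12 among the members had more fragments. Cox16 had the same fold as Atp5f1 on 42 fragments, and its interval was the wider for it.

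The import machinery had 5 listed genes by symbol, Timmdc1 among them, and the other 4 encode parts of the import route across both membranes. Timm8b, a small chaperone of the intermembrane space, had 34 fragments over 4 and a fold of 6.32 (4.44 to 8.75) over its stop codon at chr9:50604944-50605163. Timm10, another of these chaperones, had 40 over 8 and a fold of 4.11 (2.97 to 5.56), also over its stop codon, at chr2:84829816-84830116. Tomm5, a small subunit of the outer-membrane pore complex, had 37 over 5 and a fold of 5.72 (4.07 to 7.82) in the 3′ UTR at chr4:45105277-45105476. Timm21, a subunit of the inner-membrane translocase that receives presequence proteins, had 31 over 8 and a fold of 3.21 (2.22 to 4.51) over its start codon. All 4 intervals overlap one another, those of Timm8b and Timm21 by the least.

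**Figure D3:**
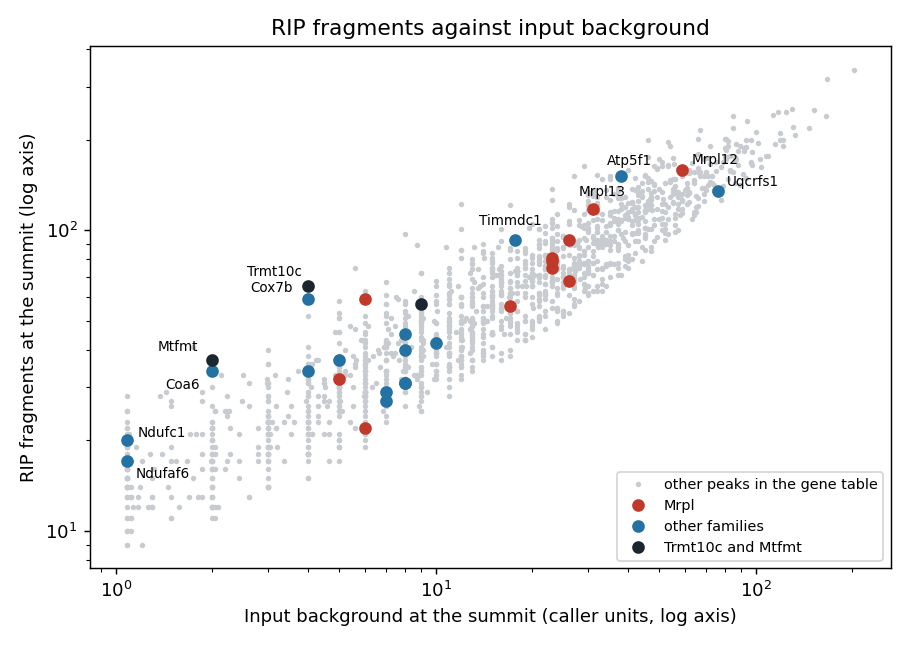
RIP fragments at the summit against input background at the summit (both axes logarithmic) for the 30 member peaks, coloured by family, over the other peaks of the gene table in grey. The 7 Mrpl peaks with a background of 20 or more sit at 68 to 159 fragments, and Trmt10c, Cox7b, Mtfmt and Coa6 lie along the upper edge at backgrounds of 2 to 4.

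Fold enrichment falls as background rises throughout the table, so families were also set side by side at like backgrounds. Below a background of 5 there were 7 member peaks, none of them Mrpl, with a median fold of 10.5 (range 6.32 to 11.9), beside a median of 5.43 (2.88 to 13.8) over the 310 peaks of the whole table there. Without Trmt10c and Mtfmt, 5 peaks of the prefix families remained, with a median of 9.13 (6.32 to 10.8). From 5 to below 10 there were 11, with a median of 4.11 beside 4.24. From 10 to below 20 there were 3, with a median of 3.53 beside 3.29. At 20 and above there were 9, with a median of 3.0 (1.59 to 3.53) beside 2.36 (1.30 to 5.18) over 637 peaks. The 7 Mrpl peaks in that last range had a median of 3.0 and a range of 2.30 to 3.35. The low folds of Mrpl peaks thus stood with their high backgrounds, and at 20 and above their median was not below that of the table. The 7 low-background peaks belonged to Trmt10c, Mtfmt, Cox7b, Coa6, Ndufc1, Ndufaf6 and Timm8b, with Ndufc1 and Ndufaf6 at the lowest background in the list. These are few peaks, and no difference was tested.

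By rank of fold, as a description, the prefix families gave 2 of the 20 highest genes in the table, Cox7b and Coa6, and 5 of the first 100, with Ndufc1, Ndufaf6 and Mrpl18. Trmt10c and Mtfmt, named in the rule, make these 4 and 7. The prefix families hold 26 of the 1285 genes ranked. Rank by fold favours peaks of low background, and no test of the ranks was run. More than 1 peak was listed for 2 of the 28 genes, Trmt10c and Mrpl18, 7.14% (1.98 to 22.6), an interval that holds the 17% of the table (218 genes).

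A larger share of member peaks than of all table peaks spanned the stop codon, and a smaller share lay wholly in the 3′ UTR. Each peak was given 1 element, the first that it touched of stop codon, start codon, coding sequence, then 3′ UTR and last 5′ UTR. The stop codon held 10 of 30 member peaks, 33.3% (19.2 to 51.2), beside 246 of 1541, 16% (14.2 to 17.9). The 3′ UTR held 6, 20% (9.51 to 37.3), beside 690, 44.8% (42.3 to 47.3). These 2 pairs of intervals do not overlap, and no test was run. Under other rules the 3′ UTR intervals overlap. Counting each touched element, 53.3% (36.1 to 69.8) of member peaks reached the 3′ UTR beside 62.8% (60.4 to 65.2) in the table, and by peak centre 43.3% (27.4 to 60.8) lay in it beside 46.4% (43.9 to 48.9). The centre rule is uneven. The centre fell in no exon of the transcript used for 1 of 30 member peaks, 3.33%, and for 383 of 1530 table peaks, 25%. These peaks stay in the totals, so the near-equal 3′ UTR shares by centre do not show that the groups are alike. Coding sequence held 8, 26.7% (14.2 to 44.4), beside 22.8%, the start codon 4, 13.3% (5.31 to 29.7), beside 7.2%, and the 5′ UTR 2, 6.67%, beside 9.28%. For coding sequence the other rules set the intervals apart. Counting each touched element gave 66.7% (48.8 to 80.8) beside 43.8% (41.3 to 46.3). By peak centre the coding share was 50% (33.2 to 66.8) beside 22.2% (20.1 to 24.3), and no test was run. Counted together, stop codon and 3′ UTR held 16 member peaks, 53.3% (36.1 to 69.8), beside 63.3% in the table, where the intervals give no separation. The stop codon share was also high for the proteasome, 7 of 11 peaks, 63.6% (35.4 to 84.8), so it was not particular to mitochondrial genes.

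Transcript length moves with this result. Members with a row had a median transcript of 1236.5 nt with a 3′ UTR of 398.5 nt, while protein-coding genes of the table had 3396 nt and 1454 nt. The part of length in the element shares was not tested. Within the families, listed genes were longer than the 182 members with no row, whose medians were 1093 nt and 273 nt. The coding sequences of both groups of members were of like length, 508.5 and 507 nt.

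**Figure D4:**
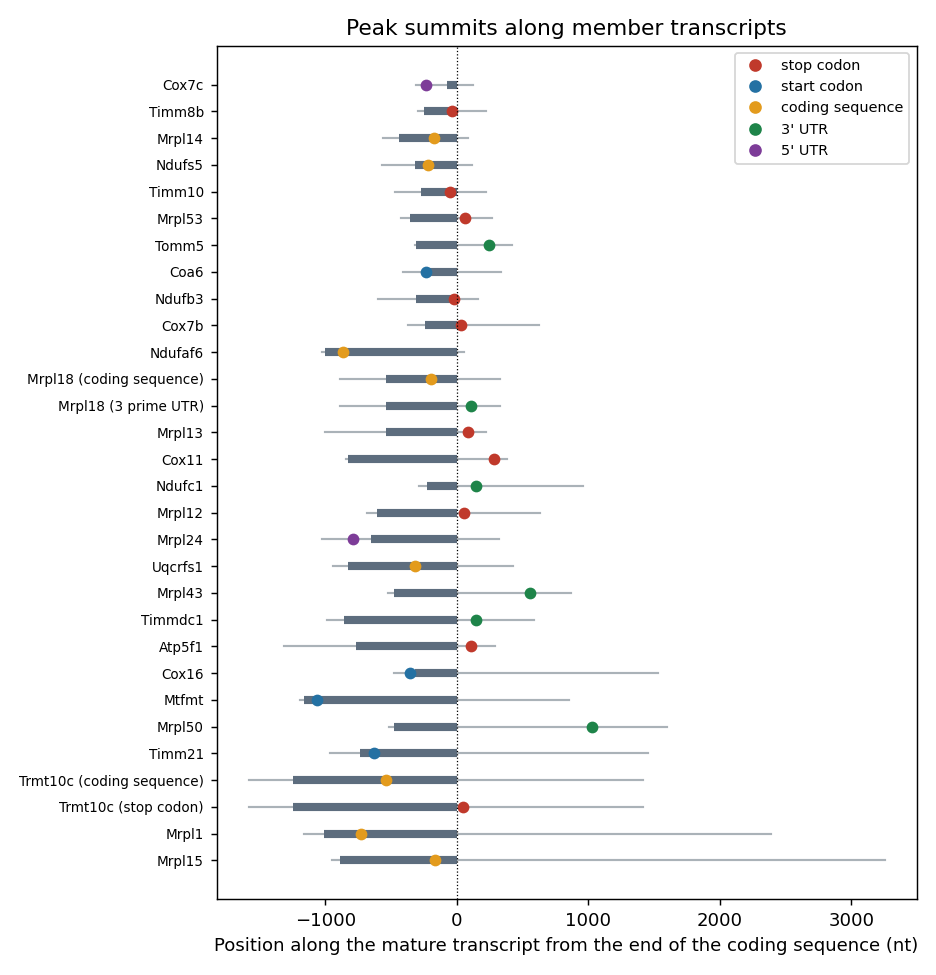
Position of each member peak's summit along the mature transcript (horizontal axis, nt from the end of the coding sequence, linear), with the coding sequence as a thick bar and the untranslated regions as thin lines, transcripts ordered by length. Most stop codon summits lie within 100 nt of the dotted line, and Mrpl50 lies farthest to its right.

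Along the transcripts, 20 of the 30 peaks lay in the last exon and 8 in the first. The summit lay within 100 nt of the stop codon in 8 peaks and within 100 nt of the start codon in 3. The 10 stop codon peaks had summits from 50 nt before to 283 nt after the end of the coding sequence, and a median fold of 3.82. They came from 5 families and Trmt10c: Cox7b, Cox11, Timm8b, Timm10, Ndufb3, Atp5f1, Mrpl12, Mrpl13, Mrpl53 and Trmt10c. The 4 start codon peaks, of Mtfmt, Coa6, Cox16 and Timm21, held no GGACH and had a median fold of 7.03 on 31 to 42 fragments. No Mrpl peak lay over a start codon.

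The motif was not denser in member peaks than elsewhere in the same transcripts. On the strand of the gene, GGACH occurred 21 times in member peaks, 3.02 per kb, and in 11 of 30 peaks, 36.7%. Windows of the same width on either side along the genome had 2.37 per kb, and 40% of them held one. The rest of the members' mature transcripts had 3.42 per kb, so the density in peaks was 1.27 times that of the windows and 0.883 times that of the transcripts. Of all table peaks, 47.3% held GGACH, at 2.52 per kb. DRACH, which includes every GGACH, occurred at 18.8 per kb in member peaks, 17.1 in the windows and 19.3 in the rest of the transcripts. It was in 93.3% of member peaks and in 96.7% of all table peaks. By family, 6 of 11 Mrpl peaks and 5 of the 19 others held GGACH, and 3 of the 10 peaks with folds of 5 or more did, those of Ndufc1, Ndufaf6 and the Trmt10c coding peak. The most matches were 4 in Mrpl12, a peak of low fold. No m6A site was mapped here, and whether YTHDF2 was bound at peaks with or without these letters was not tested.

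Many of these genes have processed copies in the genome, to which reads could also map. With at least 90% identity over at least 80% of the peak, 8 of the 30 peaks had a copy elsewhere in GRCm38 and 22 had none. These were Cox7b with 3 copies (up to 97.6% identical), Ndufb3 with 4 (96.7%), Tomm5 with 2 (99%), Timm8b with 2 (92.7%), Ndufs5 with 1 (98.9%), Mrpl15 with 1 (90.7%), and both Mrpl18 peaks with 1 each (94.3 and 97.5%). None of the 15 copies carried a listed peak. How reads that fit several places were handled is not given in the sources used here, so the values of these 7 genes are less certain than those of Trmt10c, Mtfmt, Coa6 and Ndufc1, whose peaks had no copy. Strand is another limit: whether the libraries keep strand is not given. Beside Cox11, exons of other genes lay under the peaks of Mrpl53 (Gm42688, same strand, listed for that peak by the authors too) and Mrpl12 (the non-coding Gm16755, opposite strand). Those fragments cannot be assigned to 1 gene.

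Peaks not listed for a member in the gene table numbered 30 over member gene bodies, in 17 genes, 12 of them without a row. Another annotated gene lay under 9 of these peaks. They had a median fold of 4.79, and 28 lay in introns. The 2 over exons were Timm9, a partner of Timm10, with a fold of 6.32 (4.44 to 8.75) on 34 fragments, and the import receptor Tomm70a with 4.07 (3.01 to 5.40) on 46. Intron peaks were led by Cox16 with 8.38 (5.72 to 11.9), Ndufb3 with 7.53 (4.95 to 11), Ndufv2 with 7.44 (5.08 to 10.6) and Ndufs4 with 7.40 (4.43 to 11.7). Cox16 had 6 such peaks and Ndufs4 had 4, in gene bodies of 126102 and 100464 bp. The Cox16 gene body is shared with the overlapping Gm20498. After Mrps30, Ndufaf2 stood at 6.10 (3.47 to 10.1), Uqcrh at 5.82 (3.91 to 8.36), Mrpl42 at 5.24 (2.85 to 8.99), Atp5g2 at 4.26 (3.05 to 5.81), Ndufs3 at 4.18 (3.13 to 5.48), Ndufab1 at 4.00 (2.75 to 5.65) and Tomm20 at 3.73 (2.56 to 5.27). Further intron peaks lay in Mrpl1, Mrpl15, Timmdc1 and Tomm70a. The authors list 1 of the 30 for another gene, Smim15, inside an intron of Ndufaf2. YTHDF2 is mainly cytoplasmic, and the library steps are worded for DNA in the labels, with no statement on its removal. The source of the intron peaks was not tested.

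Mitochondrial genes outside these families were also listed in part. Of 145 genes found from 7 lists, 12 had a row, 8.28%, beside 5.82% of all protein-coding genes and 13.3% of the members. No interval was computed for this share, and its difference from either was not tested. Other respiratory chain genes gave 4 of 31: the electron carrier Cycs at 6.55 (3.98 to 10.2), Sdhaf4 at 4.90 (3.49 to 6.70), Sco1 at 3.44 (2.12 to 5.32) and Tmem70 at 3.27 (2.49 to 4.22). Maintenance and transcription of mitochondrial DNA gave 3 of 15: the single-strand binding protein Ssbp1 at 4.08 (2.48 to 6.37), the elongation factor Tefm at 2.18 (1.48 to 3.12) and the DNA-packaging factor Tfam at 2.02 (1.65 to 2.44), the last on 102 fragments. Mitochondrial RNA processing and tRNA modification, the setting of Trmt10c, gave 2 of 26: Nsun3 at 5.43 (3.30 to 8.50) and Trmt5 at 2.35 (1.56 to 3.42). The list named for translation factors, the setting of Mtfmt, also holds genes that are not such factors, Ptcd2 among them. It gave 2 of 18: Mtif2 at 4.90 (3.49 to 6.70) and Ptcd2 at 3.23 (2.35 to 4.34). Other import and processing genes gave 1 of 25, the chaperone Hspa9 at 1.86 (1.51 to 2.27). Mitochondrial aminoacyl-tRNA synthetases gave 0 of 20 and genes of mitochondrial dynamics 0 of 10. Trmt10c and Mtfmt ranked 3 and 4 by fold among the 1285 genes of the table and were named in the rule. That no gene of the RNA-processing or translation-factor lists reached their folds therefore says nothing about these lists.

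Markers of cell types were looked up in the same table. Of 20 myotube genes, 4 had a row, 20% beside the 5.82% of all genes: Mylpf at 4.22, Neb at 3.44, Tnnt1 at 3.04 and Tnni2 at 1.76. The lists for hepatocytes, for neurons, for immune cells and for endothelium with fat cells held 5 genes each, and in all 4 lists 0 genes had a row. At the background share a list of 5 genes would most often hold no row, and a gene without a row can still be expressed, so these counts do not check the label.

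The authors' own enrichment tables bear on these families through 6 terms, picked here for their names. The KEGG pathway Ribosome had 12 genes of 113 in the authors' deposited table, where 6.57 were expected (Fisher's exact p = 0.0306, FDR 0.203), and 7 of the 12 were Mrpl. In the authors' deposited table Oxidative phosphorylation had 6 of 115 where 6.69 were expected (Fisher's exact p = 0.667, FDR 0.924), all of them members: Atp5f1, Cox11, Cox7b, Ndufb3, Ndufc1 and Uqcrfs1. For Gene Ontology, the authors' deposited table gave mitochondrion 113 genes of 1307 where 80.3 were expected (Fisher's exact p = 9.8e-05, FDR 0.00383), 19 of them members. It gave the mitochondrial large ribosomal subunit 5 of 21 where 1.29 were expected (authors' deposited table, Fisher's exact p = 0.00771, FDR 0.104). Respiratory chain complex I had 2 of 38 where 2.33 were expected (authors' deposited table, Fisher's exact p = 0.687, FDR 0.826). Mitochondrion organization had 25 of 190 where 11.7 were expected (authors' deposited table, Fisher's exact p = 0.00025, FDR 0.0073), and its members here were Mrpl12, Mrpl15 and Timm10. Of these 6 terms, mitochondrion and mitochondrion organization had an FDR under 0.05. The gene background of those tables is not given in the sources used here.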

How the data were processed

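RIP and input RNA of C2C12 myotubes were sequenced as paired ends, 1 library each. Per the series' design text, alignment was to mm10 by Bowtie, and MACS called the peaks of RIP over input. Per the submitters' processing notes, other tools were DiffBind, deepTools, HOMER, Picard, Trim Galore and FastQC; no version of any is given in the sources used here. For each of 9271 peaks the authors deposited a pileup (signal), a fold enrichment (linear ratio), and a p-value and q-value, each as −log10. The authors deposited a table that pairs 1541 peaks with genes and marks elements, a table of the number (count) and percent of peaks per element, and KEGG and GO tables with gene counts, a Fisher p-value and its FDR.

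Every pileup value was a multiple of 0.9 (tolerance 1e-06), read as 1 fragment. Background was computed as (pileup + 1)/fold − 1. The total depth of either library is unknown. The median peak of the gene table had 57 fragments, a background of 15 and a fold of 3.25; over all peaks the median was 29 fragments (8 to 349). Coordinates are 1-based mm10. Genes, elements and sequence came from GRCm38, the same build, with GENCODE M21: 1281 of the authors' 1285 genes matched, 1275 of them protein-coding, and 244 of 248 stop codon marks overlapped an annotated stop codon of that gene. Positions use 1 transcript per gene. Copies were searched with blastn 2.17.0+. Scripts used Python 3.11.15, pandas 2.3.3, scipy 1.17.1 and pysam 0.24.0, and were tested on simulated data. Every member with a row in the gene table is named, up to 15 with peaks only outside it, and up to 4 genes of each other list. The members and lists were chosen with earlier results of these data known. Alternatives changed the peak threshold, the assignment of peaks to genes, the membership, the element rule and the motif reference.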

Additional observations from a re-analysis of the deposited data

How the results depend on the processing

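No paired analysis was possible because each group had 1 library. Of the 28 genes, a fold of 4 or more left 13, with 2 in Mrpl, 1 in Cox, 0 in Atp5 and 0 in Uqcr, and a 5′ UTR share of 0%. A q-value of 1e-05 or less left 2 in Cox and 0 in Uqcr. Taking peaks over exons gave 2 in Tomm and 2 in Atp5, and taking peaks over gene bodies gave 9 in Nduf, 3 in Tomm, 3 in Atp5, 2 in Uqcr and 1 in Mrps. Counting each touched element raised coding sequence to 66.7% and 3′ UTR to 53.3% of member peaks, and the element at the peak centre gave 50 and 43.3%. Over the whole table these 3′ UTR shares were 62.8 and 46.4%, with intervals that overlap those of the members, unlike under the order used. The coding sequence shares there were 43.8 and 22.2%, with intervals that do not overlap those of the members. The shares by centre count peaks centred in no exon of the transcript used, 25% of the table's and 3.33% of the members'. The count of members otherwise ranged from 23 to 41, the median highest fold from 3.46 to 4.54, and the median highest pileup from 40.5 to 53.1. The older symbol of Atp5mpl was an alternative chosen after seeing the data. Ranks by fold describe this list only, and counting error leaves the order of neighbouring peaks unsettled.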
